A study of Mus musculus with 4 samples.

Results

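The cartilage programme was followed through 10 genes in single cells of the fetal mouse penis. The genes were the transcription factors *Sox9*, *Sox5* and *Sox6*, and the matrix genes *Col2a1*, *Col9a1*, *Col9a2*, *Col9a3*, *Acan*, *Otor* and *Matn4*. They were chosen by name, and all 10 were found among the 32287 counted features. Their levels were read in 28324 mesenchymal cells, out of 31132 cells kept from 47040, and compared between control (DTA-) and *Nr5a1*-Cre ablated (DTA+) penises.

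SOX9 is the factor that commits mesenchyme to cartilage, and SOX5 and SOX6 bind beside it and strengthen its action on matrix genes. The genes they switch on build the cartilage matrix: type II collagen (*Col2a1*) forms the fibrils, type IX collagen (*Col9a1*, *Col9a2* and *Col9a3* encode its chains) coats them, and the proteoglycan aggrecan (*Acan*) holds water between them. *Otor* encodes otoraplin, a small secreted protein known from the cartilage of the inner ear, and *Matn4* encodes matrilin-4, an adaptor of the extracellular matrix. In the genital tubercle, *Sox9* is known as a gene of the mesenchyme that builds the corporal bodies.

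The samples were male embryos at E16.5, with 2 libraries of the 3′ single-cell kind per genotype. All carried the DTA f/+ allele, a diphtheria toxin gene at the Rosa locus behind a stop. The controls had no Cre (Nr5a1cre-, labelled WT), and the ablated embryos had it (Nr5a1cre+). The Cre is a transgene that also acts in the testis and adrenal gland, so the embryos that lost *Nr5a1*-lineage cells in the penis lost cells of these organs too. Their sires carried a *tdTomato* reporter at the Rosa locus. The labels name no litter, animal or batch, so the p-values below measure the spread between these samples, part of which may be technical.

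The libraries held between 11343 and 12580 cells and between 50779551 and 73577028 unique molecular identifiers (UMIs, each a captured mRNA molecule). Kept cells numbered 6573 and 7874 in DTA- and 7875 and 8810 in DTA+, with a median of 4700 and 4077 against 3551 and 3560 UMIs per cell. The limit of 7500 UMIs took away 21.4% of the cells of the first control and between 9.98% and 11.2% of the cells of the others. Any pair of libraries shared between 31 and 48 cell barcodes, at most 0.423% of the smaller library. The *tdTomato* reporter had 0 UMIs in both DTA- libraries and 3579 and 3140 UMIs in the DTA+ libraries. Its transcript thus parted the groups, but shows neither which embryos carried the reporter allele nor how far the ablation went. *Nr5a1* itself had 1 or 2 UMIs in each library. *Grem1* and *Scube2* were stained by the study in tissue sections, and it reported both as significantly lower in the ablated penises by single-cell sequencing. Summed over all cells before filtering, and not tested, they did not part the groups. *Grem1* was at 24.5 and 33.9 CPM (counts per 1000000 UMIs of the same cells) in DTA- against 24.6 and 12.8 CPM in DTA+. *Scube2* was at 2.64 and 3.58 against 2.95 and 1.40 CPM. The study's result came from another measure, a test on filtered single cells. For single genes its methods name linear mixed-effect models with each biological replicate as a random effect. It also showed stains of both genes in control and ablated sections, and counted fewer *tdTomato*-positive cells per section of ablated penises.

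Clustering without the 10 genes gave 27 clusters, of which 19 were mesenchymal by their markers. Of these, 2 clusters, number 1 (2494 cells) and number 26 (166 cells, with the markers of cycling cells), had 4 and 5 of 16 other cartilage markers enriched: *Col11a1*, *Scrg1*, *Papss2* and *Wwp2* in both, and *Fgfr3* in cluster 26. The marker lists were chosen with earlier results of these data known, and the limit of 4 markers was set after the data were seen. Clusters 1 and 26 carried most of the mesenchymal mRNA of *Sox9* and of the type II and IX collagens, although no gene of the 10 was used to find them. They were not named cartilage, because 9 of the 16 markers were found in under 1% of their cells, *Matn1* in 0, and because the keratin *Krt8* stood among the 10 leading genes of both clusters while none of the 16 markers did. They are called clusters 1 and 26 below, and the other 17 clusters are the other mesenchymal cells.

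Among the 10 leading genes of cluster 1 by fold over all other cells were 6 of the 10 genes: *Sox9* in place 2, then *Col9a1*, *Col9a3*, *Col2a1*, *Sox5* and *Col9a2*. The other 4 were *Ecrg4*, *Agt*, which encodes angiotensinogen, *Krt8* and *Aspn*, which encodes asporin. Cluster 26 was led by *Col9a1*, *Col9a3* and *Col2a1*, followed by *Krt8*, *Agt*, *Lockd* and genes of dividing cells (*Kif23*, *Spc24*, *Esco2* and *Cenpf*). *Acan* and *Matn4* did not stand out in either cluster, with log2 folds over the other cells of 0.05 and 0.38 in cluster 1 and 0.17 and 0.44 in cluster 26.

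*Sox9* (chromosome 11 of GRCm38, 112782224 to 112787760, plus strand) was at 705 CPM in cluster 1. Levels by cluster are given with the 4 samples summed unless a sample is named. At least 1 *Sox9* UMI was found in 79.6% of the cells of cluster 1. The level was 640.4 CPM in cluster 26 and 236 CPM in cluster 7, the osteogenic-like cluster led by *Cpm*, *Hs3st3b1* and *Dlx5*. Across the other mesenchymal clusters, cluster 7 included, the median was 5.49 CPM and the lowest 2.10 CPM. In cluster 7 the 4 samples lay between 202 and 246 CPM, well under the lowest value of cluster 1, 663 CPM. The order of clusters 1 and 26 was not the same in every sample, since *Sox9* ranged from 514 to 834 CPM in cluster 26. Macrophage-like cells, which should lack the gene, had a *Sox9* UMI in 1 of 293 cells at a median of 4818 UMIs per cell, against 80.2% of the cells of clusters 1 and 26 at a median of 3833.

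*Sox5* (chromosome 6, 143828425 to 144781977, minus strand) was at 155 CPM in cluster 1 and 124 CPM in cluster 26. Within the mesenchyme it came next in cluster 10, a periurethra-like cluster led by *Mup17* and *Epha3*, at 47.5 CPM. Outside the mesenchyme it was higher than in any of these, at 415 CPM in the Schwann and neural-like cluster, where 70.4% of cells had a UMI and the samples ranged from 337 to 469 CPM.

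*Sox6* (chromosome 7, 115470872 to 116038796, minus strand) was at 37.1 CPM in cluster 1 and 36.4 CPM in the osteogenic-like cluster 7. The samples of these 2 clusters ran from 31.6 to 47.2 CPM and from 32.7 to 49.99 CPM, so that the levels of the clusters overlapped. In cluster 26 *Sox6* was at 24.3 CPM, and in epithelium-like cells at 30.8 CPM. In cluster 10 and in Schwann-like cells, the other places of *Sox5*, *Sox6* had 0.973 and 4.03 CPM, from 5 UMIs each.

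*Col2a1* (chromosome 15, 97975602 to 98004695, minus strand) was at 147 CPM in cluster 1 and 307 CPM in the cycling cluster 26, where 68.1% of cells had a UMI against 31.7% in cluster 1. The next clusters, number 16, led by *Hand2os1*, and number 13, had 24.8 and 21.5 CPM, with overlapping samples. In every sample the level in cluster 26 was above that in cluster 1, from 215 to 523 CPM against 108 to 175 CPM. In the osteogenic-like cluster 7, where *Sox9* and *Sox6* were present, a UMI of *Col2a1*, *Col9a1*, *Col9a2* or *Col9a3* was present in between 9.77% and 25.9% of its *Sox9*-positive cells per sample, against between 63.2% and 82.7% of those of clusters 1 and 26.

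The genes of type IX collagen had the same pair of clusters on top. *Col9a1* (chromosome 1, 24177610 to 24252684, plus strand) was at 379 CPM in cluster 26 and 179 CPM in cluster 1, and at most at 10.7 CPM in any other mesenchymal cluster. *Col9a3* (chromosome 2, 180597790 to 180622189, plus strand) was at 375 and 180.3 CPM, at most at 18.5 CPM elsewhere in the mesenchyme, and at 99.2 CPM in Schwann-like cells. *Col9a2* (chromosome 4, 121039385 to 121055322, plus strand) was at 213 and 148 CPM, and reached further, to 43.9 CPM in cluster 13, led by *Rprm* and *Dsc3*, and 41.9 CPM in cluster 16. Clusters 1 and 26 held between 84.5% and 89.8% of all mesenchymal *Col9a1* UMIs per sample, between 82.6% and 89.2% of those of *Col9a3*, but between 52.6% and 66.9% of those of *Col9a2*.

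The remaining matrix genes were less bound to these clusters. *Acan* (chromosome 7, 79053483 to 79115099, plus strand) was almost silent in the mesenchyme, with 39 UMIs in 28324 cells. It was found instead in pericyte-like cells and smooth muscle-like cells, from 38 and 33 UMIs. In pericyte-like cells it was at 9.10 and 13.4 CPM in DTA- and 53.7 and 49.6 CPM in DTA+, and in smooth muscle-like cells at 26.1 and 14.8 against 27.4 and 0 CPM, so that the order of these cell types was not the same in every sample. *Matn4* (chromosome 2, 164389393 to 164405160, minus strand) was at 9.82 and 11.0 CPM in DTA- and 15.4 and 15.4 CPM in DTA+ in cluster 1. It was higher in every sample in cluster 4, led by *Irx1* and *Col7a1*, at 13.9 and 15.4 against 43.0 and 19.3 CPM, where 1 ablated sample stood apart. In cluster 0, led by *Sostdc1* and *Wnt16*, it was at 14.4 and 23.3 against 12.6 and 14.7 CPM, above cluster 1 in the controls only. In Schwann-like cells it was at 64.5 CPM, with samples from 33.9 to 85.4 CPM.

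*Otor* (chromosome 2, 143078473 to 143081713, plus strand) was found in clusters 1 and 26 and in cluster 2, a cluster led by *Msx2* and *Inhba*. Their order differed between the genotypes. In both controls cluster 2 (32.2 and 18.9 CPM) was above cluster 1 (14.5 and 16.6 CPM), and in both ablated samples cluster 1 (101 and 130 CPM) was above cluster 2 (37.8 and 45.6 CPM). Summed over the samples, the levels were 67.6 CPM in cluster 1, 74.0 CPM in cluster 26 and 36.1 CPM in cluster 2. Outside the mesenchyme the highest was 8.48 CPM, in erythroid-like cells. *Sox5*, *Sox6*, *Col9a3* and *Matn4* overlap counted genes on the opposite strand, and *Sox5* also overlaps *Sox5it* on the same strand. Whether strand was used in counting is not given in the sources used here, so the share of reads from those partners is unknown.

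**Figure D1:**
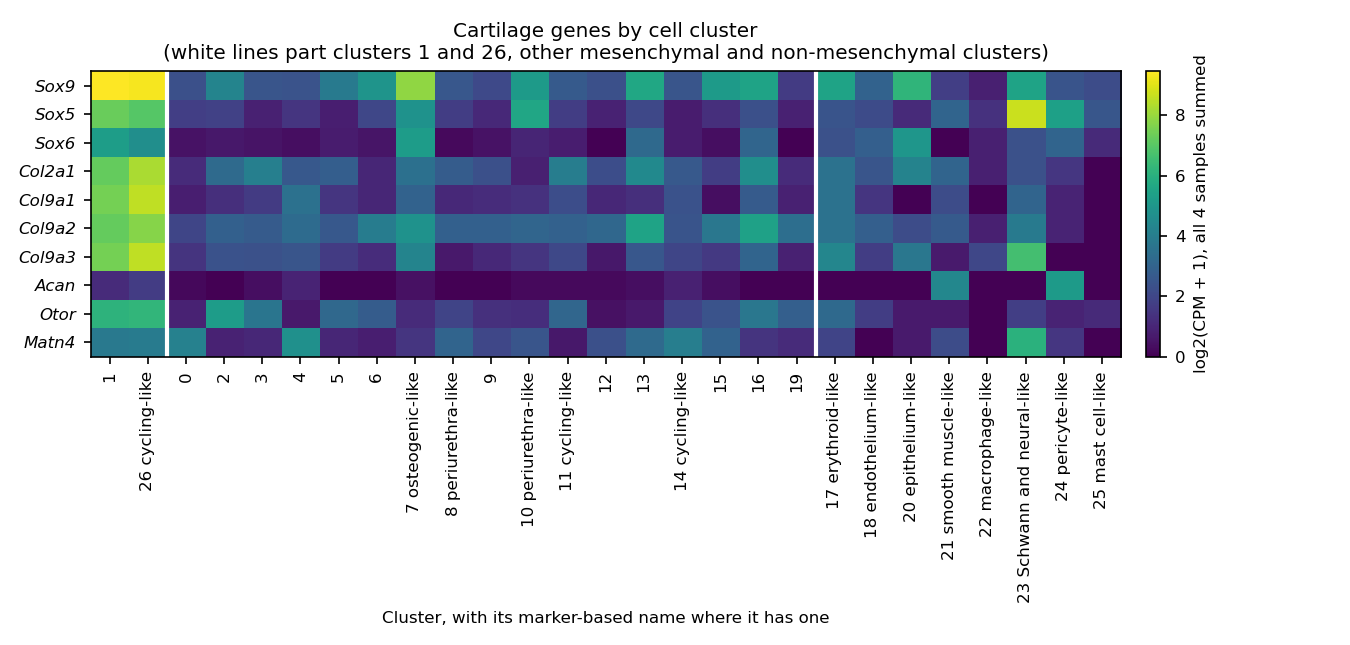
Colour gives log2(CPM + 1) of each cartilage gene (rows) in each of the 27 clusters (columns), with the 4 samples summed and white lines between clusters 1 and 26, the other mesenchymal clusters and the non-mesenchymal ones. *Sox9* and the collagen rows are brightest in clusters 1 and 26, *Sox9* and *Sox6* also stand out in cluster 7, and *Sox5* and *Matn4* are brightest in the Schwann and neural-like cluster.

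Over the 19 mesenchymal clusters, log2(CPM + 10) of *Sox9* followed that of *Sox6* (Pearson's r = 0.93), *Col9a2* (0.91) and *Sox5* (0.89) more closely than that of *Col2a1* (0.80). *Col9a1* and *Col9a3* followed each other most closely, with r = 0.985. *Matn4* had r between 0.03 and 0.66 with the other 9 genes. The clusters come from the same 4 libraries, so these coefficients are descriptions. Outside the 10 genes, the 5 most like *Sox9* among the 8675 genes at 20 CPM or more in a cluster were *Rgcc*, *Slc2a1*, *Eef1aknmt*, *Aldoc* and *Kctd14*, with r between 0.93 and 0.94. The 5 most like *Col2a1* were *Fat1*, *Scrg1*, *Pparg*, *Calb1* and *Pgk1*, with r between 0.92 and 0.94.

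The first comparison asked whether the cartilage programme differed over the whole mesenchyme between the genotypes. UMIs were summed per sample and tested over 15203 genes with edgeR's quasi-likelihood test, and a gene with a Benjamini-Hochberg adjusted p-value under 0.05 was called. In such sums, fewer cells of a type and less RNA per cell cannot be told apart. None of the 10 genes was called (0 of 10, with 1 at an unadjusted p under 0.05, and 1 called by DESeq2), beside 194 of all genes tested (1.28%). The median log2 fold change, DTA+ minus DTA-, was -0.01 over the 10 genes and 0.0013 over all genes. Of the 194 calls 52.1% were higher in the ablated penises.

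Across the mesenchyme, *Sox9* was at 94.8 and 76.1 CPM in control and 88.7 and 94.0 CPM in ablated penises, a log2 fold change of 0.03 (SE 0.14). *Col2a1* was at 17.2 and 22.1 CPM against 20.8 and 24.4 CPM, a log2 fold change of 0.13 (SE 0.17). In both cases the genotypes overlapped. *Sox5*, *Sox6*, *Col9a1*, *Col9a2* and *Col9a3* had log2 fold changes between -0.18 and 0.11, of which *Sox5* alone kept the genotypes apart (17.3 and 18.5 against 19.4 and 21.3 CPM). *Matn4* had 0.63 (SE 0.37) and *Acan*, at under 0.7 CPM in each sample, -0.90 (SE 0.73). *Otor* was at 7.31 and 3.90 CPM in control and at 15.2 and 21.3 CPM in ablated penises, a log2 fold change of 1.63 (SE 0.31) that did not pass the adjustment (adjusted p = 0.0629). For 2 of the 10 genes the genotypes were apart in these CPM, which are scaled by library size. The share of all genes, 50.4%, was counted after TMM, edgeR's scaling of the libraries, so the values are not on the same scale.

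The limit on UMIs per cell bore on this comparison. With no upper limit, *Sox9* was at 146 and 99.5 CPM in control and 86.7 and 109 CPM in ablated penises, with overlapping genotypes. Every other *Sox* and collagen gene was higher in both controls than in both ablated samples. *Col9a3*, for example, was at 47.3 and 30.4 against 23.4 and 22.5 CPM, and *Sox6* at 8.51 and 8.26 against 5.21 and 7.53 CPM. The gap was narrow for *Sox5*, at 26.3 and 24.7 against 18.9 and 24.6 CPM. All of the *Sox* and collagen genes, *Sox9* included, had negative log2 fold changes, from -0.29 for *Sox5* to -0.82 for *Col9a3*. None of them was called (adjusted p from 0.0726 to 0.324 by edgeR). In that setting the clusters chosen by the same marker rule held 848 cells of the first control, against 504 cells with the limit, and between 701 and 863 cells of the other samples, against 595 to 812. The first control was also the deepest library, and the part that depth had in these values was not tested.

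Clusters 1 and 26 were compared next, to read the programme within the cells that carry it. Of the mesenchymal cells they were 8.57% and 8.49% in DTA- (504 and 595 cells) and 11.4% and 8.99% in DTA+ (812 and 749 cells). Their share did not pass the test on cell numbers (log2 ratio 0.26, SE 0.49, adjusted p = 0.793 over 18 populations, edgeR). Without the upper UMI limit the shares were 11.5% and 10.1% against 11.3% and 9.55%, with the controls no longer the lower group.

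Here 9 of the 10 genes could be tested and 1 was called, *Otor*, which was higher in the ablated penises. Of all 11047 genes tested, 731 were called (6.62%), 360 of them higher (3.26%). The calls were thus 49.2% higher ones, against 71.4% when libraries were scaled by their size alone, a scaling that moved the median of all genes from -0.01 to 0.10 on the log2 scale. *Otor* stood at 14.6 and 17.4 CPM in DTA- and at 97.2 and 136 CPM in DTA+. The log2 fold change was 2.76 (SE 0.23, adjusted p = 2.74e-05, edgeR). The lower ablated sample was far above the higher control. With only 1 ablated sample left, the fold change was 3.002 (without replicate 1) and 2.47 (without replicate 2), but no gene of those tested was called (*Otor* at adjusted p = 0.576 and 0.507).

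Of the transcription factors, *Sox9* was at 759 and 646 CPM in control and 673 and 723 CPM in ablated penises (log2 fold change -0.11, SE 0.13), with overlapping genotypes. *Sox5* was at 123 and 154 CPM against 155 and 174 CPM (0.14, SE 0.16). *Sox6* was at 35.9 and 45.7 CPM against 31.8 and 31.2 CPM (-0.48, SE 0.20, adjusted p = 0.166). The genotypes did not overlap for *Sox5* and *Sox6*, yet neither passed the test.

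Of the collagens, *Col2a1* was at 116 and 183 CPM in control and 148 and 192 CPM in ablated penises (log2 fold change 0.08, SE 0.21). *Col9a1* was at 148 and 242 CPM against 209 and 184 CPM (-0.10, SE 0.20). Both ran through each other between the genotypes. *Col9a2* was at 148 and 190.3 CPM against 138 and 138 CPM (-0.40, SE 0.16, adjusted p = 0.147). *Col9a3* was at 199 and 225 CPM against 181 and 183 CPM (-0.33, SE 0.14, adjusted p = 0.182). These last genes lay lower in both ablated samples by less than the test requires. Without the upper UMI limit both passed, *Col9a2* at -0.47 (adjusted p = 0.0430) and *Col9a3* at -0.51 (adjusted p = 0.0350). *Col9a3* also passed in cells thinned to 1000 UMIs (-0.67, adjusted p = 0.0300). Of all genes, more were called than in the main test without the limit and fewer after thinning, as counted in the closing section. The cause was not tested.

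*Matn4* was at 9.87 and 11.0 CPM against 15.5 and 15.8 CPM (0.48, SE 0.27, adjusted p = 0.312). *Acan* was counted too rarely to test, with 2 and 12 UMIs in the controls and 0 in both ablated samples. The 0 of 812 and 0 of 749 cells allow a share of cells with an *Acan* UMI of up to 0.369% and 0.401%, and the controls had 0.397% and 1.51%. At this depth a difference in *Acan* could not be shown. Of the 9 genes tested, 6 kept the genotypes apart in these CPM, beside 53.4% of all genes in TMM-scaled CPM. *Sox5* did so by a narrow gap, 154 against 155 CPM, which was not checked under TMM scaling.

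**Figure D2:**
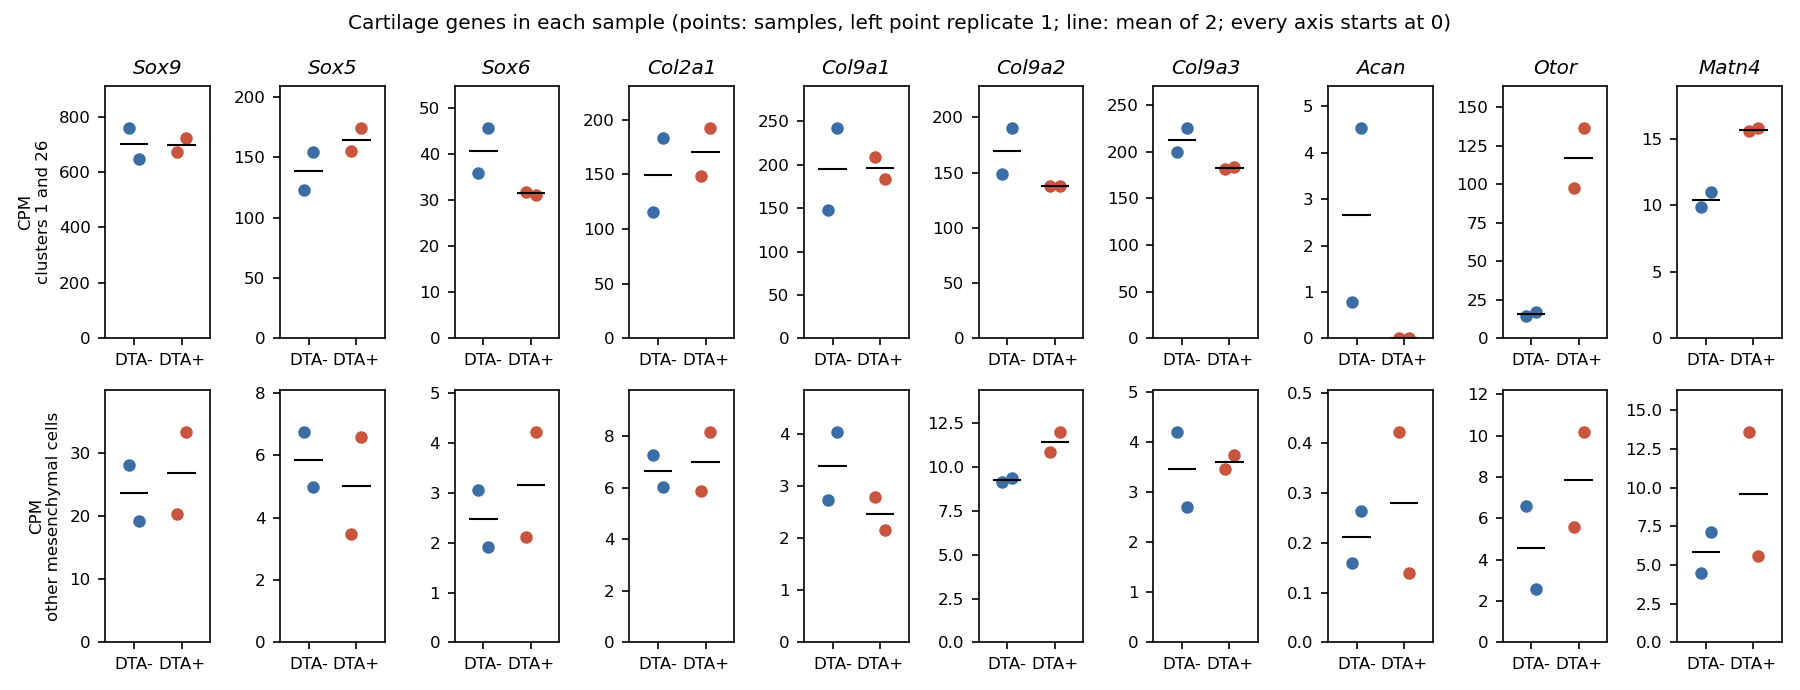
CPM of each cartilage gene in clusters 1 and 26 (upper row) and in the other mesenchymal cells (lower row), with 1 point per sample, a line at the mean of 2 samples and every axis starting at 0. In the upper row *Otor* lies at 97.2 and 136 CPM in the ablated samples against 14.6 and 17.4 CPM in the controls, while *Sox9*, *Col2a1* and *Col9a1* overlap between the genotypes.

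The higher *Otor* level came with more cells that had it and with more UMIs per such cell. In the controls, 5.56% (95% Wilson interval 3.87 to 7.91) and 6.22% (4.54 to 8.45) of the cells of clusters 1 and 26 had an *Otor* UMI. In the ablated penises, 15.1% (12.8 to 17.8) and 22.3% (19.5 to 25.4) had one. These intervals cover counting error only. The positive cells held on average 1.32 and 1.24 *Otor* UMIs in DTA- and 2.19 and 2.28 in DTA+. The ablated cells were the shallower ones, at a median of 3171 and 3390 UMIs against 5091 and 4360 UMIs in the controls. With every cell thinned to 1000 UMIs, which left out no cell, the shares were 1.59% and 1.85% against 6.90% and 9.35%. Macrophage-like cells had an *Otor* UMI in 0 of 293 cells, which allows a share of up to 1.02%, and mast cell-like cells in 1 of 197.

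Most *Otor*-positive cells of clusters 1 and 26 were *Sox9* cells. A *Sox9* UMI was found in 82.1% and 97.3% of them in DTA- and in 87.0% and 84.4% in DTA+, beside 84.2%, 84.6%, 71.1% and 79.4% of the cells without *Otor*. The *tdTomato* reporter was at 62.5 and 55.2 CPM in these clusters of the ablated penises, and 19 of the 123 and 20 of the 167 *Otor*-positive cells had a reporter UMI, in a total of 137 of 812 and 124 of 749 cells with one. The study reported that this transcript was leaky, with a low background in most cells, and called cells positive only above a count threshold. Cells with any UMI were counted here, from 173 and 154 UMIs, and are not read as *Nr5a1*-lineage cells.

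The summed markers of some other cell types in clusters 1 and 26 also kept the genotypes apart, beside 53.4% of all genes tested there in TMM-scaled CPM. That share is of single genes, not of sums. None of these sums was tested. The summed level of 6 pericyte markers was 115 and 111 CPM in DTA- and 187 and 180.1 CPM in DTA+, and that of 6 smooth muscle markers 83.7 and 73.6 against 49.8 and 34.4 CPM. For 6 erythroid markers it was 2293 and 1216 against 1170.3 and 251 CPM, for 6 mast cell markers 23.7 and 28.7 against 11.9 and 7.53 CPM, and for 6 tendon markers 137 and 122 against 115 and 110.1 CPM (*Tnmd* at 0). No marker of the other 4 lists was at 0. Of the clusters of these types, pericyte-like, smooth muscle-like and mast cell-like cells had 1 *Otor* UMI each in all samples together (0.911, 0.605 and 1.18 CPM), and no cluster was named for tendon. Erythroid-like cells had *Otor* at 10.4 and 2.33 CPM in DTA- and 4.04 and 33.8 CPM in DTA+, from 6, 2, 3 and 10 UMIs, so that 1 ablated sample was above the controls of clusters 1 and 26 there. Of 6 skeletal muscle markers *Myod1*, *Myog*, *Pax7* and *Myf5* were at 0, and the sum was 4.34 and 3.02 CPM in DTA- against 2.53 and 1.08 CPM in DTA+. The 16 cartilage markers by which these clusters were chosen summed to 292 and 373 CPM in DTA- against 289 and 229.6 CPM in DTA+ (*Matn1* at 0). The sums of the epithelial (126 to 166 CPM), endothelial (12.8 to 18.5), macrophage (2.76 to 9.39), Schwann (7.95 to 10.8, *Foxd3* at 0), periurethral (169 to 245) and cycling lists (222 to 371 CPM) overlapped between the genotypes, while those of the osteogenic list did not (132 and 105 against 100.4 and 102 CPM, *Ibsp* at 0). Some of these shifts were not particular to clusters 1 and 26. Over all mesenchymal cells the pericyte (148 and 135 against 178 and 182 CPM) and smooth muscle sums (122 and 193 against 109 and 101 CPM) were also apart. So was the erythroid sum (3003 and 2189 against 1906 and 725 CPM), while the mast cell, tendon, osteogenic, skeletal muscle and cartilage sums overlapped there. The part that these markers had in the *Otor* difference was not tested beyond these values.

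The region before the *Otor* start is shown because *Otor* was the gene called in these clusters. RefSeq on GRCm38.p6 gives a promoter window for 7 of the 10 genes (14 windows), and the 250 bases upstream of the *Otor* start, chr2:143078143-143078392 on the plus strand, read as follows, 5′ to 3′, with a TATAAA box in capitals.

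Otor: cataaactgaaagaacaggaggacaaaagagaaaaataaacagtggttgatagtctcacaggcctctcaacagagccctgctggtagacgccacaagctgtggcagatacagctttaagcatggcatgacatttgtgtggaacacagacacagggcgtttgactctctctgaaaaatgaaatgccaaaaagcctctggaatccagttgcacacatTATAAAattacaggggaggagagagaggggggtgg

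The box ends 29 bases before the RefSeq start and does not overlap another motif searched. The GENCODE start of *Otor*, 143078473, lies downstream of the RefSeq start, so the box is further from it. TATAAA, read on both strands, was in 2 of the 14 windows and in 12.4% of the 32851 windows of all genes. AACAAT, a core that SOX factors bind, was on neither strand of the *Otor* window. It was in 1 of the 14 windows, before a start of *Sox6*, and in 9.42% of all windows.

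The other mesenchymal cells were tested to see whether the same held outside clusters 1 and 26. These cells were not split into clusters alike in both genotypes. Cluster 9, led by *Akap12* and *Iyd*, was 0.391% and 0.243% of mesenchymal cells in DTA- and 9.88% and 6.64% in DTA+ (log2 ratio 4.70, SE 0.62, adjusted p = 0.000488, edgeR). Cluster 12, led by *Ly6a* and *Igfbp5*, was 4.52% and 11.9% against 0.408% and 0.120% (-4.96, SE 0.82, adjusted p = 0.00140). *Akap12* was among the 10 leading genes of both clusters, and genes that differ between the genotypes were not left out of this clustering. A gain and loss of cell types and a shift of expression within a type can therefore not be told apart here. The part that this split had in the values below was not tested. None of the 9 genes tested was called (0 of 9 by edgeR, 0 at an unadjusted p under 0.05 and 0 by DESeq2), beside 177 of 15001 genes (1.18%), of whose calls 46.9% were higher ones, or 57.1% under scaling by library size alone. *Otor* was at 6.58 and 2.56 CPM in control and 5.57 and 10.2 CPM in ablated penises (log2 fold change 0.73, SE 0.45, adjusted p = 0.470), with overlapping genotypes. With a sample left out this value ran from 0.19 to 1.57, and it was called without DTA+ replicate 1 (1.08, adjusted p = 0.0183). *Sox9* was at 28.1 and 19.2 against 20.4 and 33.3 CPM. The genotypes were apart for *Col9a2* alone, at 9.16 and 9.38 against 10.9 and 12.01 CPM (0.24, SE 0.16), which is 1 of 9 genes, beside 49.2% of all genes in TMM-scaled CPM.

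**Figure D3:**
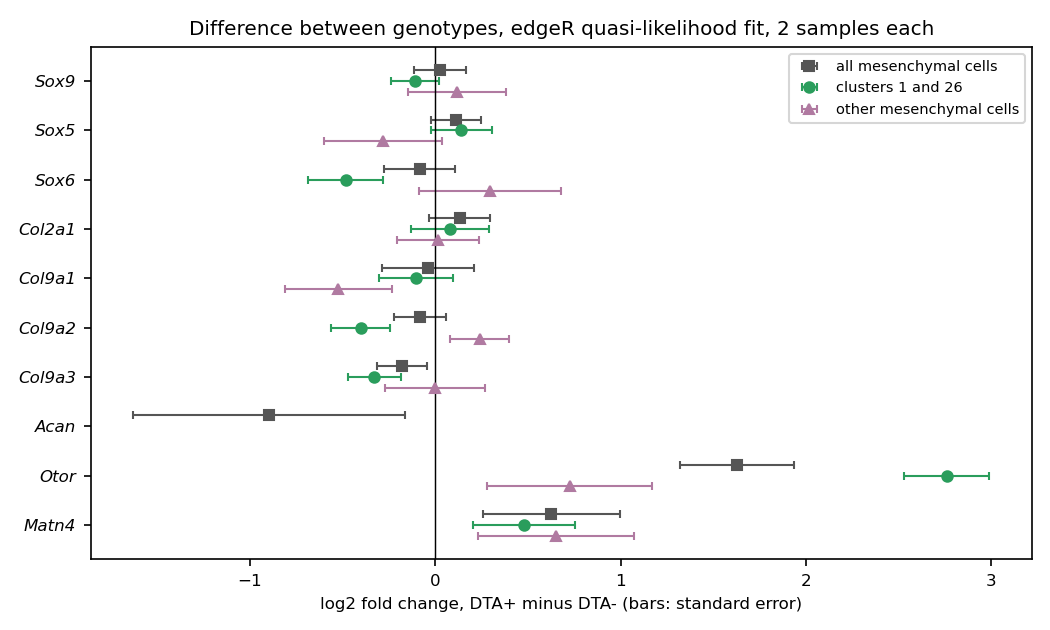
Log2 fold change of each cartilage gene (x axis, DTA+ minus DTA-, bars of 1 standard error) over all mesenchymal cells, clusters 1 and 26, and the other mesenchymal cells, from 2 samples per genotype. *Otor* lies at 2.76 in clusters 1 and 26 and 0.73 in the other cells, and *Col9a2* at -0.40 and 0.24.

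Whether the genotype difference itself differed between clusters 1 and 26 and the other mesenchymal cells was tested in a model with a term for each sample. Of 14505 genes, 415 were called (2.86%), and among them were 2 of the 10 cartilage genes. For *Otor* the difference of log2 fold changes was 2.01 (SE 0.30, adjusted p = 0.000293, edgeR). For *Col9a2* it was -0.63 (SE 0.15, adjusted p = 0.0161), a call that was lost without DTA- replicate 2 (-0.46, adjusted p = 0.229) and without DTA+ replicate 2 (-0.58, adjusted p = 0.219). The share of mesenchymal *Otor* UMIs that came from clusters 1 and 26 was 18.2% and 40.4% in DTA- and 67.1% and 56.4% in DTA+. The corresponding share for *Col9a2* was 61.9% and 66.9% against 59.8% and 52.6%. *Sox6* had -0.76 (SE 0.34, adjusted p = 0.327), and *Col9a1* and *Sox5* had 0.43 each, with adjusted p-values of 0.290 and 0.438. *Acan*, at 0 in both ablated samples of clusters 1 and 26, had an adjusted p of 0.0832.

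By single cluster, 64 tests of these genes could be made in the 16 mesenchymal clusters with at least 20 cells in every sample, and 3 were called, beside 3.77% of the tests of all genes in these clusters. *Otor* was higher in the ablated penises in cluster 1 (14.5 and 16.6 against 101 and 130 CPM, log2 fold change 2.78, SE 0.22, adjusted p = 7.73e-06, edgeR), where 7.8% of genes were called. In the small cycling cluster 26 it was at 15.7 and 23.8 against 57.0 and 228 CPM (2.72, SE 0.61, adjusted p = 0.0671). *Otor* was also higher in cluster 6, led by *Thbd* and *Ptgis*, at 2.63 and 2.78 against 10.2 and 10.1 CPM, from 6, 5, 13 and 16 UMIs (1.84, SE 0.47, adjusted p = 0.0143, where 12.5% of genes were called). In clusters 6 and 26 both controls were under the filter on low counts. *Otor* was thus tested there only because of its higher level in the ablated samples, and the call in cluster 6 is no independent support. Cluster 2, with the most *Otor* of the other clusters, had 32.2 and 18.9 against 37.8 and 45.6 CPM (0.67, SE 0.25, adjusted p = 0.291). Uncalled rises were larger in clusters 11 (1.70, SE 0.50, adjusted p = 0.0938) and 5 (1.49, SE 0.53, adjusted p = 0.0917), each with a control under the filter on low counts. In clusters 4, 8 and 14, where *Otor* was too rare to test, both ablated samples were under both controls.

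The third call was *Sox9* in cluster 5, led by *Coch*, *Meox2* and *Wif1*. It was at 7.33 and 10.9 CPM in control and 16.7 and 25.05 CPM in ablated penises, from 18, 23, 33 and 36 UMIs (1.15, SE 0.32, adjusted p = 0.0335, where 7.78% of genes were called). In cluster 6 *Sox9* was at 31.2 and 33.4 against 17.3 and 27.9 CPM (-0.53, SE 0.26, adjusted p = 0.204). Larger uncalled values went both ways. In cluster 10 it was at 43.9 and 45.9 against 32.0 and 18.5 CPM (-0.99, SE 0.29, adjusted p = 0.0839). In cluster 0 it was at 2.01 and 1.97 against 6.31 and 6.05 CPM (1.57, SE 0.44, adjusted p = 0.0772), with both controls under the filter on low counts.

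**Figure D4:**
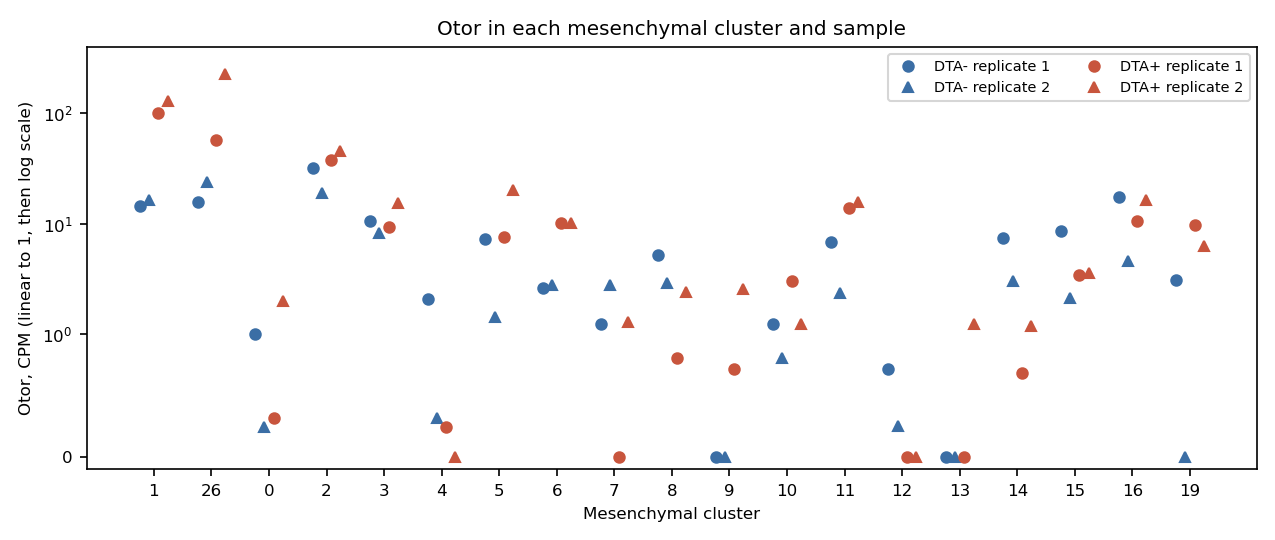
CPM of *Otor* in each of the 19 mesenchymal clusters (x axis) and each sample (blue, DTA-; red, DTA+; circles, replicate 1; triangles, replicate 2), on an axis that is linear to 1 CPM and logarithmic above. In cluster 1 the ablated samples are at 101 and 130 CPM and the controls at 14.5 and 16.6 CPM, and in cluster 2 the samples lie between 18.9 and 45.6 CPM.

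Other cartilage genes were read from a list of 25 genes, 24 of them in the files, mostly matrix genes and matrix enzymes, with the signal *Ihh* and the receptor *Pth1r* among them. Many of them are also among the markers by which clusters 1 and 26 were chosen. These are *Col11a1*, *Col11a2*, *Hapln1*, *Cnmd*, *Comp*, *Matn1*, *Matn3*, *Snorc*, *Epyc*, *Cytl1*, *Scrg1*, *Mia*, *Susd5* and *Papss2*. Their values in these clusters are therefore not independent of that choice. Over all mesenchymal cells 17 were tested and 1 was called. *Papss2*, an enzyme that makes the sulfate donor for proteoglycans, was lower in the ablated penises, at 13.5 and 14.6 against 6.96 and 6.72 CPM (log2 fold change -1.11, SE 0.15, adjusted p = 0.0281, edgeR). In clusters 1 and 26, where 12 were tested and 6.62% of all genes were called, 2 were higher and 2 lower, and the median log2 fold change was -0.36 against -0.01 over all genes.

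*Hapln1*, a link protein that ties aggrecan to hyaluronan, was lower in clusters 1 and 26, at 30.8 and 45.7 CPM in control and 13.4 and 9.33 CPM in ablated penises (-1.86, SE 0.28, adjusted p = 0.00164, edgeR). The gene was not particular to these clusters. In the other mesenchymal cells it was at 31.9 and 30.1 against 29.3 and 27.6 CPM (-0.19, SE 0.13, adjusted p = 0.515). *Mia*, a secreted cartilage protein of the same family as *Otor*, was at 12.6 and 32.1 against 10.8 and 6.82 CPM (-1.46, SE 0.40, adjusted p = 0.0460), with wide spread in the controls. The genes that were higher encode leucine-rich matrix proteins. *Chad* (chondroadherin) was at 5.53 and 2.64 against 19.9 and 10.04 CPM (1.76, SE 0.42, adjusted p = 0.0252), and *Prelp* at 3.16 and 1.13 against 7.95 and 8.97 CPM (1.87, SE 0.47, adjusted p = 0.0301). Both controls of *Prelp* and the second control of *Chad* (2.64 CPM) were under the filter on low counts. Both genes were thus tested only because of their higher level in the ablated samples. *Papss2* in these clusters had -0.42 (SE 0.23, adjusted p = 0.287). In the other mesenchymal cells *Papss2* was called lower, at 12.4 and 13.0 against 4.98 and 5.40 CPM (-1.35, SE 0.17, adjusted p = 0.0204, edgeR). It was the 1 call among 11 genes of the list tested there, beside 1.18% of all genes.

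A second list held 18 regulators of cartilage formation, among them other SOX factors and BMP and FGF receptors. *Wwp2* and *Fgfr3* of this list are also among the markers by which clusters 1 and 26 were chosen. Over all mesenchymal cells 15 were tested and 1 was called. *Arid5b*, a transcriptional partner of SOX9, was higher in the ablated penises, at 115 and 130 against 222 and 220.2 CPM (0.78, SE 0.11, adjusted p = 0.0342, edgeR). In clusters 1 and 26, 0 of 10 were called by edgeR, with 3 at an unadjusted p under 0.05 beside 2602 of the 11047 genes tested, and *Arid5b* had 0.46 (SE 0.18, adjusted p = 0.135). In the other mesenchymal cells *Arid5b* was called higher, at 121 and 135 against 235 and 233 CPM (0.81, SE 0.11, adjusted p = 0.0289, edgeR). It was the 1 call among 15 regulators tested there, beside 1.18% of all genes.

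**Figure D5:**
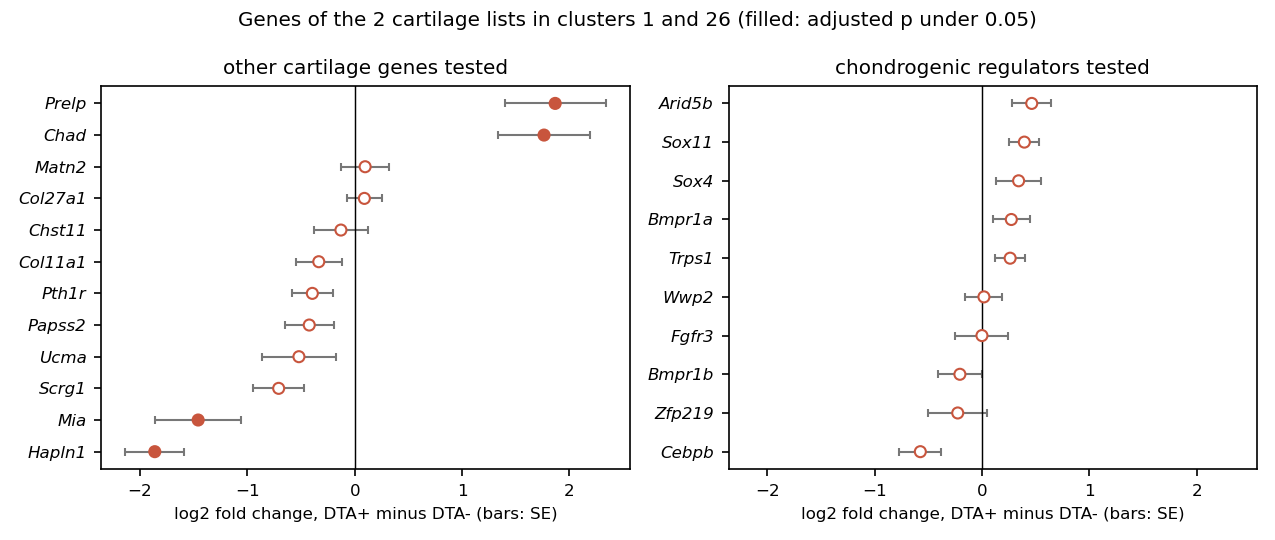
Log2 fold change (x axis, DTA+ minus DTA-, bars of 1 standard error) in clusters 1 and 26 of the tested genes of the list of other cartilage genes (left) and of the list of regulators (right), with filled points for adjusted p-values under 0.05. *Hapln1* (-1.86) and *Mia* (-1.46) lie to the left and *Chad* (1.76) and *Prelp* (1.87) to the right, and no regulator is filled.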

How the data were processed

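The 4 libraries were made by the 10x Genomics method. The authors mapped the reads to mm10 with reporter sequences added, and the deposited values are raw UMI counts for each gene in each cell. The submitters' processing notes name Cell Ranger 4.0.0. The cartilage genes, the marker lists and the 2 further lists were chosen with earlier results of these data known.

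A cell was kept between 1000 and 7500 UMIs (both limits excluded) when mitochondrial genes held up to 25%, *Hba* genes up to 25% and *Hbb* genes up to 50% of its counts. Doublets stayed in. Seurat 5.3.0 clustered them on 2000 variable genes, without the 10 genes, and 30 principal components at resolution 0.8. A class name needed 3 enriched markers (in 5% of cells, log2 fold 0.8 after adding 10 CPM), 1 of them among 25 leading genes, and no other class ahead among the 10 leading genes. Mesenchymal clusters had 4 of 8 mesenchymal markers in 25% of cells. Clusters 1 and 26 had at least 4 cartilage markers, a number set after the data were seen. Counts were summed per sample and tested with edgeR 4.0.16 in R 4.3.3 (TMM, filterByExpr, quasi-likelihood test, genotype only). Levels are CPM of the summed counts, and SEs are the fold change divided by the root of F. Shares of all genes with the genotypes apart were counted in TMM-scaled CPM. The difference between compartments had a term per sample. DESeq2 1.42.0 and the other alternatives are in the closing section. In simulated counts for clusters 1 and 26 (10793 genes), 200 genes were given a log2 change of 1. It was found in 52.5% of them, with 12 false calls. Over all mesenchymal cells (14991 genes) it was found in 59%, with 13 false calls. Smaller changes, as most of the cartilage genes had here, were not simulated.

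Named besides the 10 genes were called genes of the lists (up to 3 each way), the 10 leading genes of clusters 1 and 26, the 5 genes most like *Sox9* and *Col2a1*, and label checks; other genes name clusters or were named after their values were seen. Positions are from GENCODE vM21, whose build GRCm38 is that of mm10. Other steps used Python 3.11.15, numpy 2.4.6, scipy 1.17.1, pandas 2.3.3, scanpy 1.11.5 (Scrublet) and matplotlib 3.10.9.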

Additional observations from a re-analysis of the deposited data

Results flagged for a closer look

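*Otor* and *Col9a2* had genotype differences that themselves differed between cell groups of the same samples. The log2 fold change of *Otor* in clusters 1 and 26 exceeded that in the other mesenchymal cells by 2.01, and that of *Col9a2* was 0.63 lower (a difference of -0.63), both past an adjusted p of 0.05 in edgeR's test of the difference. For *Otor* the difference stayed between 1.07 and 2.71 with each sample left out, with adjusted p-values up to 0.0494. For *Col9a2* it stayed between -0.82 and -0.46, but lost its call without DTA- replicate 2 (-0.46, adjusted p = 0.229) and without DTA+ replicate 2 (-0.58, adjusted p = 0.219).

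The *tdTomato* reporter, which was given above as counts and tested in no comparison, was at 70.5 and 61.8 CPM over all cells of the ablated libraries and at 0 in both controls.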

How the results depend on the processing

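Counts of called cartilage genes. Over all mesenchymal cells the count went from 0 to 1, *Otor* each time, with DESeq2 (1), edgeR's likelihood ratio test (1), no filter on low counts (1), the highest doublet scores left out (1), thinning to 1000 UMIs (1) and mesenchymal cells chosen by a rule per cell (1), and lay between 0 and 2 with each sample left out. In clusters 1 and 26 it was 1, except for 3 with no upper UMI limit (*Col9a2* and *Col9a3* added) and 2 after thinning (*Col9a3* added), and between 0 and 5 with each sample left out. *Otor* there had log2 fold changes from 2.44 to 3.002 in all settings run, but adjusted p-values of 0.576 and 0.507 without DTA+ replicates 1 and 2. Without DTA- replicate 1, the log2 fold changes were -0.66 for *Sox6*, -0.42 for *Col9a1*, -0.58 for *Col9a2* and -0.43 for *Col9a3*. Without DTA- replicate 2, that of *Col2a1* was 0.48. Each fit with a sample left out has 1 sample in a group, so its calls are not read as results on these genes. Over all mesenchymal cells *Otor* was called without DTA- replicate 1, DTA+ replicate 1 or DTA+ replicate 2, and *Matn4* without DTA+ replicate 2 (1.08). In the other mesenchymal cells the count was 1 (*Otor*) with no filter and between 0 and 1 with samples left out (*Otor* without DTA+ replicate 1, 1.08, and *Matn4* without DTA+ replicate 2, 1.17). The interaction count, 2, lay between 1 and 4 (*Sox6* added without DTA- replicate 1 or DTA+ replicate 1, *Col9a3* without DTA- replicate 1, *Sox5* without DTA- replicate 2). The share of clusters 1 and 26 passed in no setting run, with log2 ratios between 0.076 and 0.42 with samples left out. Scrublet's automatic threshold called 3 cells, so the 1959 cells of highest score were left out instead. Among all genes, the number called moved from 194 to 635 with DESeq2, 922 with the likelihood ratio test, 1237 with no filter and 410 with no upper UMI limit over all mesenchymal cells, from 731 to 376, 1211, 40 and 1468 in clusters 1 and 26 (429 after thinning, 1513 with 3 markers), and from 177 to 571, 840, 1282 and 376 in the other cells, and with samples left out from 269 to 449, from 0 to 2127 and from 392 to 744.

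The replicate numbers were not used to pair the samples in the main tests, since the labels name no litter or batch. The deviations of same-numbered samples correlated at -0.34 over all mesenchymal cells, -0.16 in clusters 1 and 26 and -0.35 in the others. With 2 samples per genotype the deviations mirror each other, so the crossed pairs have the same values with the opposite sign. Whether any samples share a litter or batch was not tested. With the replicate block, 490 in place of 194 genes were called over all mesenchymal cells, *Otor* among them (1 cartilage gene, adjusted p = 0.000865), and 399 in place of 731 in clusters 1 and 26, and 538 in place of 177 in the others. *Col9a3* in the other mesenchymal cells turned to 0.026 under the block.

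Signs of uncalled, mostly near-zero values. Over all mesenchymal cells, *Col9a1* turned to 0.028 by library size only, *Sox9* to -0.39, *Sox5* to -0.29 and *Col2a1* to -0.46 with no upper UMI limit, *Sox6* to 0.21 after thinning, *Sox6* to 0.12, *Col9a1* to 0.050, *Col9a2* to 0.011 and *Col9a3* to 0.047 under the rule per cell, and *Sox9* to -0.019 without cycling clusters (an alternative chosen after seeing the data). In clusters 1 and 26, *Col9a1* turned to 0.010 by library size only, *Col2a1* to -0.15 and *Matn4* to -0.14 with no upper limit, *Col2a1* to -0.040 after thinning and to -0.016 without cycling clusters, and, with 3 markers in place of 4 (also chosen after seeing the data), *Sox9* to 0.12 and *Col9a1* to 0.14. In the other cells, *Col9a3* turned to 0.062 by library size only and 0.018 at resolution 0.4, *Sox9* to -0.28 and *Col2a1* to -0.32 with no upper limit, *Sox9* to -0.039 and *Col2a1* to -0.14 after thinning, and *Col2a1* to -0.029 without the highest doublet scores, -0.011 in clusters found without genotype genes and -0.020 with 3 markers. The causes were not tested.

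With each sample left out, the ranges that crossed 0 were, over all mesenchymal cells, *Sox9* -0.14 to 0.20, *Sox6* -0.26 to 0.062, *Col2a1* -0.032 to 0.31, *Col9a1* -0.34 to 0.32, *Col9a2* -0.19 to 0.030, *Acan* -1.83 to 0.090 and *Matn4* -0.028 to 1.08. In clusters 1 and 26 they were *Sox5* -0.027 to 0.35, *Col2a1* -0.22 to 0.48 and *Col9a1* -0.42 to 0.33. For the other cells they were *Sox9* -0.27 to 0.43, *Sox5* -0.81 to 0.089, *Sox6* -0.29 to 0.69, *Col2a1* -0.24 to 0.22, *Col9a3* -0.29 to 0.35 and *Matn4* -0.14 to 1.17, and for the interaction *Sox9* -0.48 to 0.078, *Col2a1* -0.40 to 0.57, *Col9a3* -0.79 to 0.050 and *Matn4* -0.72 to 0.63.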
